A study of Mus musculus with 4 samples.

Results

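The 10 genes described here encode core subunits of Polycomb repressive complex 2 (PRC2: Ezh1, Ezh2, Eed and Suz12), the DNA methyltransferases (Dnmt1, Dnmt3a and Dnmt3b) and the TET enzymes (Tet1, Tet2 and Tet3). They were taken by symbol as core genes of these 3 groups, and not by a threshold on a measured value, although earlier results of these data were known when they were chosen. All 10 were found among the 54752 genes listed in the counts. Splenic naïve CD4+ T cells from mice of both genotypes, WT and Mek1/2-tKO, had been cultured in medium that favours T follicular helper (Tfh) cells, with plate-bound anti-CD3, with anti-CD28 and IL-6, and with antibodies that block TGF-β, IL-4, IFN-γ and IL-2. On day 3 viable cells were sorted again and their RNA was sequenced in 2 libraries per genotype. Mek1/2-tKO mice carried Cd4-Cre with both floxed alleles of Map2k1 (fl/fl) and of Map2k2 (fl/fl) on a C57BL/6 background, so that Cre is driven by Cd4 regulatory sequences, which are active in T cells from the thymus onward. The labels give the WT mice by genotype only, and the age of the mice used for these cultures, the number of mice per library and whether replicates were separate animals are not given in the sources used here, so that p values measure the spread between these libraries, which may be technical.

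PRC2 places methyl groups on lysine 27 of histone H3, a mark of silenced genes. EZH2 or EZH1 is the catalytic subunit, EED binds the mark, and SUZ12 holds the complex together. DNMT1 copies DNA methylation onto the new strand after replication, DNMT3A and DNMT3B add methylation at new sites, and the TET enzymes oxidize methylcytosine as the first step of its removal. In T cells these enzymes are known for holding lineage and cytokine genes silent or making them accessible as cells divide and differentiate.

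With a threshold of 1.5-fold and of 0.05 on the Benjamini-Hochberg adjusted p of edgeR's quasi-likelihood test, 8 of the 10 genes fell from WT to Mek1/2-tKO, 1 (Ezh1) rose and 1 (Eed) was not called. Over all 14330 genes tested, 16.4% were lower and 19.3% were higher. Since most of these genes are long, and long genes were lower more often, the share among the 6686 genes with exon lengths between 3828 and 16870 bases is the closer background. There 26.0% were lower and 10.8% higher. The WT and Mek1/2-tKO libraries did not overlap for any of the 10 genes, as for 78.3% of all genes tested. The median log2 fold change of the 10 genes, Mek1/2-tKO over WT, was -0.89, against 0.02 over all genes tested. Tet1 passed the filter on low counts only through its WT libraries, so that it could only come out as lower. Without it 7 of 9 genes were lower.

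**Figure D1:**
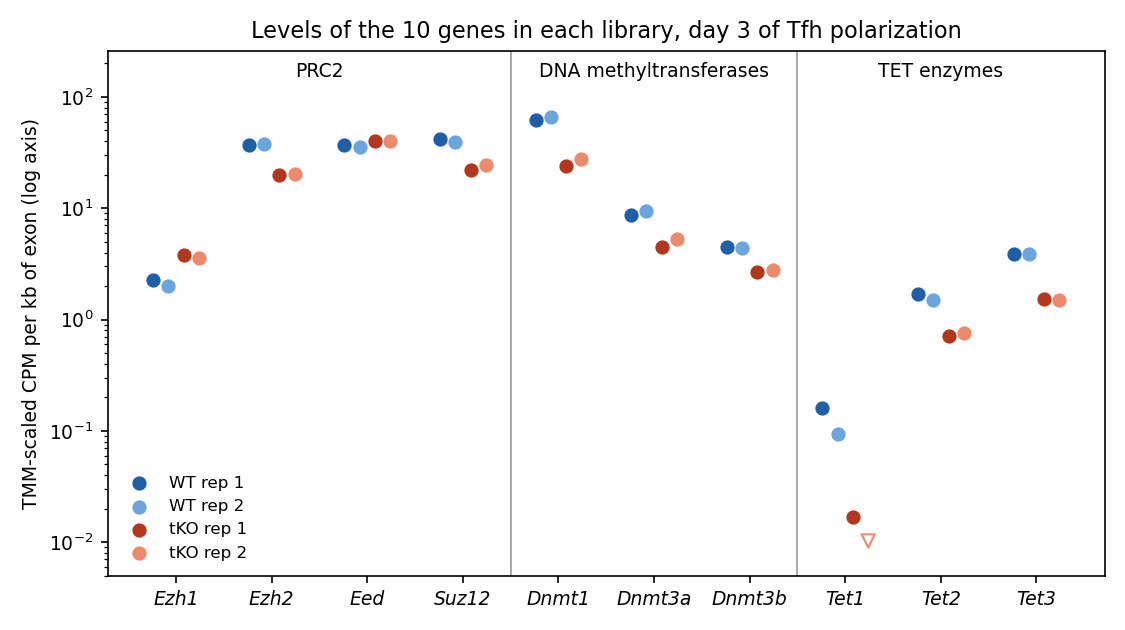
Level of each gene in the 4 libraries, as CPM (counts scaled to the library total by edgeR's TMM method) per kilobase of exon on a log axis. WT libraries are blue and Mek1/2-tKO (tKO) libraries red. The open triangle stands for Tet1 in Mek1/2-tKO replicate 2, which had 0 counts, and is drawn at the level that 3 counts would give. Points of the 2 genotypes do not overlap for any gene, and the red points lie above the blue ones only for Ezh1 and Eed.

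The libraries held 16330802 to 18931090 counts. The targeted genes were read first. Map2k1 (MEK1) had 182 and 187 CPM in WT and 98.0 and 105 CPM in Mek1/2-tKO, while Map2k2 (MEK2) had 155 and 165 CPM in WT and 172 and 182 CPM in Mek1/2-tKO. Counts summed over all exons do not separate floxed from deleted transcripts. Cd4 itself fell from 297 and 289.5 CPM to 18.8 and 25.1 CPM, which goes against the label CD4+ T cell for the Mek1/2-tKO libraries. Cd3e fell from 91.8 and 91.7 to 43.9 and 44.2 CPM. Of 12 T-cell identity markers 5 were lower, 1 (Thy1) was higher and 6 were not called. The other genes of the T-cell receptor complex, named for comparison with Cd3e, were split. By log2 fold change, Cd247 (-0.79) and Trac (-0.98) were lower. Cd3d (0.20), Cd3g (0.24), Trbc1 (0.16) and Trbc2 (-0.03) were not called. All 12 B-lineage markers were higher, and their summed level was 1272 to 1285 CPM in WT and 6691 to 6746 CPM in Mek1/2-tKO. Among them, Cd79a had 56.8 and 59.0 CPM in WT and 630.0 and 614 CPM in Mek1/2-tKO. All 5 gamma-delta T-cell markers (summed 4.36 to 6.98 CPM in WT and 165 to 184 CPM in Mek1/2-tKO) and all 6 NK-cell markers (101 to 103 and 635 to 691 CPM) were higher as well. Most of the NK-cell sum came from Nkg7 and Prf1, with means of 421 and 187 CPM in Mek1/2-tKO. No other NK-cell marker had a mean above 27.1 CPM there. Of 8 myeloid markers, 5 could be tested and all 5 were higher, but 4 of these 5 passed the filter on low counts only through the Mek1/2-tKO libraries and could only come out as higher, as could 2 of the 5 gamma-delta markers. The myeloid markers had summed levels of 1.33 to 1.76 CPM in WT and 15.7 to 22.6 CPM in Mek1/2-tKO. Adgre1 and S100a8, named for this reason, had 0 counts in both WT libraries. No B-lineage, gamma-delta or NK marker was at 0 in a whole group. These markers moved with every result below, and their part in those results was not tested. In bulk RNA, fewer cells of a type and less RNA per cell cannot be told apart.

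Both catalytic subunits of PRC2 changed, in opposite directions. Ezh2 (ENSMUSG00000029687.16, GRCm38 chromosome 6, 47530139 to 47595341, minus strand), the catalytic subunit of dividing cells, had 249.5 and 250.6 CPM in WT and 133 and 135 CPM in Mek1/2-tKO. The replicates of a genotype lay far closer to each other than to the other genotype. Its log2 fold change was -0.90 (SE 0.07, with a 95% interval from -1.06 to -0.74 and an edgeR adjusted p = 3.47e-07), a 1.86-fold lower level.

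Ezh1 (ENSMUSG00000006920.14, chromosome 11, 101191115 to 101226463, minus strand), the paralog that is known to persist in resting cells, had 16.9 and 14.9 CPM in WT and 28.4 and 26.5 CPM in Mek1/2-tKO. It rose 1.72-fold, a log2 fold change of 0.79 (SE 0.14, with a 95% interval from 0.48 to 1.09 and an edgeR adjusted p = 3.6e-04). Within a library, Ezh2 exceeded Ezh1 16.5 and 18.8 times per kilobase of exon in WT and 5.21 and 5.70 times in Mek1/2-tKO. Such a ratio does not depend on how libraries are scaled to each other. Its log2 value differed by -1.69 between the genotypes, and by -1.78 to -1.59 with each library left out. Ezh1 supplied 5.73% and 5.06% of the summed Ezh1 and Ezh2 counts per kilobase in WT and 16.1% and 14.9% in Mek1/2-tKO. The summed level of both genes was 39.6 ± 0.0783 CPM per kilobase in WT and 23.8 ± 0.112 in Mek1/2-tKO (SD, n = 2 each).

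Suz12 (ENSMUSG00000017548.15, chromosome 11, 79993106 to 80034123, plus strand), the scaffold subunit, had 205 and 194 CPM in WT and 108 and 122 CPM in Mek1/2-tKO. Its log2 fold change was -0.79 (SE 0.09, with a 95% interval from -0.98 to -0.61 and an edgeR adjusted p = 4.21e-06). Eed (ENSMUSG00000030619.9, chromosome 7, 89954654 to 89980983, minus strand), the subunit that reads the mark, had 141.5 and 136 CPM in WT and 153 and 154.5 CPM in Mek1/2-tKO. Its libraries did not overlap, but neither threshold was passed by the log2 fold change of 0.15 (SE 0.08, with a 95% interval from -0.02 to 0.32 and an edgeR adjusted p = 0.128), and the interval holds no change of 1.5-fold in either direction. Ezh2, Suz12 and Eed stood close to each other in WT and apart in Mek1/2-tKO. Per kilobase, Ezh2 stood at 1.01 and 1.06 of Eed in WT and at 0.498 and 0.503 in Mek1/2-tKO, and Suz12 stood at 1.12 and 1.11 of Eed in WT and at 0.549 and 0.612 in Mek1/2-tKO. The ratio of Ezh2 to Suz12 overlapped between the genotypes (0.900 and 0.955 in WT, 0.908 and 0.821 in Mek1/2-tKO). Exons of noncoding genes on the other strand cover 2.61% of the exon bases of Ezh2, 3.6% of those of Suz12 and 6.82% of those of Eed, and whether the counting used the strand is not stated, so that some reads may belong to those genes.

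RefSeq promoter windows of 300 bases (GRCm38.p6, 250 before to 50 after each start, 14 windows) were matched to all 10 genes by symbol. The E2F motif, spelled here as TTTCCCGC, TTTCGCGC, TTTGCCGC or TTTGGCGC on either strand, was searched because E2F factors are known to drive genes of the S phase. It occurred in a window of Ezh2, Suz12 and Dnmt1, and in 2.26% of all 32851 promoters. The stretches of 30 bases around the matches are shown with the match in capitals, on the strand of the transcript, and a position is that of the first base of the match, with the first transcribed base as 0.
Ezh2, chr6:47595009-47595038, minus strand, position 3: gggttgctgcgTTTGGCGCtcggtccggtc
Suz12, chr11:79992876-79992905, plus strand, position -219: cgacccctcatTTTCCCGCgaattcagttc
Dnmt1, chr9:20952824-20952853, minus strand, position -219 (on the opposite strand to the gene): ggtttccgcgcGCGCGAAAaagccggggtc
Dnmt1, chr9:20952574-20952603, minus strand, position 33: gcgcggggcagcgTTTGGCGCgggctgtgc
Both matches of Dnmt1 lie in 1 of its 3 windows, and the first of them lies inside an exon of another Dnmt1 transcript that begins farther upstream (GENCODE M21). The Ezh1 promoter is printed from 250 bases before the start to base 29 for comparison, since Ezh1 alone rose. It held none of the E2F spellings, and neither did the windows of Eed or of 5 of the 8 genes that fell (Dnmt3a, Dnmt3b, Tet1, Tet2 and Tet3), so that the motif does not separate Ezh1 from the others.
Ezh1, chr11:101226434-101226713, minus strand: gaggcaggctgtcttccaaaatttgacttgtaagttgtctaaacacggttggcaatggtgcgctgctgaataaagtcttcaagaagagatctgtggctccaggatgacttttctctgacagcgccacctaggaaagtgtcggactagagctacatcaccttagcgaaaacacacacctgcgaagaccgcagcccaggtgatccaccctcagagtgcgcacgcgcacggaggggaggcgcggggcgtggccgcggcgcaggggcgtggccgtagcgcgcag
No window held the ETS motif CCGGAAGT, which 3.89% of all promoters hold, or the SRF CArG box (1.63% of all), and 1 Dnmt3a window held the MYC E-box CACGTG (7.15% of all). These matches describe letters and not bound sites. CpG counts of the 14 windows ranged from 2 to 57, against a median of 7 over all promoters. The windows with an E2F match held 31 (Ezh2), 41 (Suz12) and 33 (Dnmt1). Every E2F spelling used here holds a CG, so that 2.26% is not the share among promoters as rich in CpG.

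All DNA methyltransferase genes were lower. Dnmt1 (ENSMUSG00000004099.16, chromosome 9, 20907209 to 20959888, minus strand), the maintenance enzyme and the most abundant of the 10 genes in WT, had 454.5 and 488 CPM in WT and 179 and 206 CPM in Mek1/2-tKO. It fell 2.45-fold, a log2 fold change of -1.29 (SE 0.09, with a 95% interval from -1.47 to -1.11 and an edgeR adjusted p = 3.42e-08). Uhrf1, which brings DNMT1 to newly replicated DNA, fell with it, from 413.5 and 412.6 CPM to 199 and 210.4 CPM, and its log2 fold change was -1.01 (SE 0.07, edgeR adjusted p = 9.05e-08). Per kilobase, Dnmt1 stood at 0.635 and 0.683 of Uhrf1 in WT and at 0.518 and 0.566 in Mek1/2-tKO.

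Dnmt3a (ENSMUSG00000020661.15, chromosome 12, 3806007 to 3914443, plus strand), a de novo methyltransferase, had 143 and 157 CPM in WT and 75.0 and 88.6 CPM in Mek1/2-tKO. Its log2 fold change was -0.88 (SE 0.10, with a 95% interval from -1.09 to -0.66 and an edgeR adjusted p = 5.88e-06). Dnmt3b (ENSMUSG00000027478.15, chromosome 2, 153649450 to 153687730, plus strand), the other de novo enzyme, was much the scarcer in both genotypes, with 22.8 and 22.2 CPM in WT and 13.6 and 14.2 CPM in Mek1/2-tKO. It fell 1.62-fold, a log2 fold change of -0.70 (SE 0.15, with a 95% interval from -1.01 to -0.38 and an edgeR adjusted p = 0.00118). Each of the 3 genes kept its place in the family. Dnmt1 made up 82.5% and 82.7% of their summed counts per kilobase in WT and 77.1% and 77.6% in Mek1/2-tKO, Dnmt3a 11.5% and 11.8% against 14.4% and 14.8%, and Dnmt3b 5.98% and 5.45% against 8.51% and 7.69%. The summed level of the family in Mek1/2-tKO was 43.6% of that in WT.

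All TET genes were lower as well, although Tet1 could only come out as lower. Tet3 (ENSMUSG00000034832.15, chromosome 6, 83362373 to 83459084, minus strand), the most abundant of the family here, had 65.4 and 64.5 CPM in WT and 25.4 and 25.1 CPM in Mek1/2-tKO. Its log2 fold change of -1.36 (SE 0.11, with a 95% interval from -1.59 to -1.13 and an edgeR adjusted p = 2e-07) was a 2.57-fold fall. Tet2 (ENSMUSG00000040943.12, chromosome 3, 133463679 to 133545139, minus strand), which is often mutated in human Tfh-type lymphoma, had 28.8 and 25.1 CPM in WT and 12.1 and 12.7 CPM in Mek1/2-tKO. It fell 2.17-fold, a log2 fold change of -1.12 (SE 0.15, with a 95% interval from -1.44 to -0.80 and an edgeR adjusted p = 2.77e-05).

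Tet1 (ENSMUSG00000047146.17, chromosome 10, 62804570 to 62908996, minus strand), best known from embryonic stem cells, was close to the limit of detection. Only 48 and 28 reads fell on it in WT, against 4 and 0 in Mek1/2-tKO, and a library with 0 could have held up to 3 (0.158 CPM) by counting error alone. Its log2 fold change of -3.97 (SE 0.88, with a 95% interval from -5.86 to -2.08 and an edgeR adjusted p = 0.00173) depends on how edgeR treats the 0, and ranged from -8.24 without Mek1/2-tKO replicate 1 to -2.90 without Mek1/2-tKO replicate 2. Per kilobase, Tet3 made up 67.8% and 71.0% of the family in WT and 67.5% and 66.7% in Mek1/2-tKO, Tet2 29.5% and 27.3% against 31.8% and 33.3%, and Tet1 2.75% and 1.73% against 0.742% and 0%. The family as a whole stood at 5.62 ± 0.242 CPM per kilobase in WT and at 2.26 ± 0.00259 in Mek1/2-tKO (SD, n = 2 each).

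**Figure D2:**
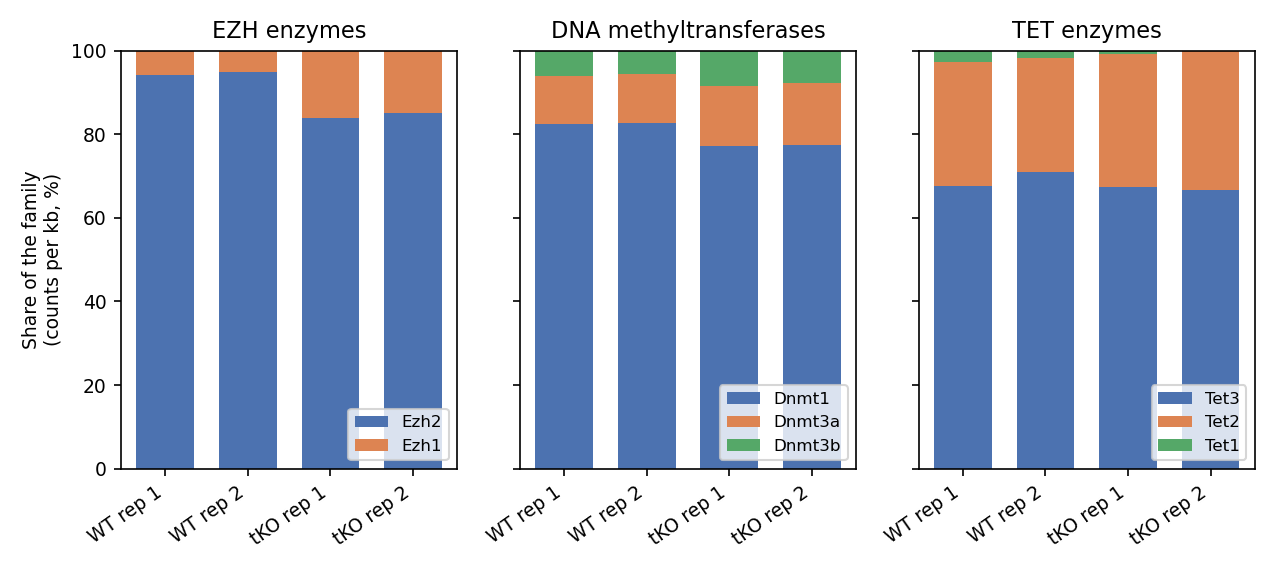
Share of each gene in its family in each library, in percent of the family's summed counts per kilobase of exon (stacked bars, 1 per library, no error bars). The Ezh1 share is 5.06 to 5.73% in WT and 14.9 to 16.1% in Mek1/2-tKO, while Dnmt1 and Tet3 remain the largest part of their families in all 4 libraries.

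Per kilobase of exon, the WT order ran from Dnmt1 (63.9 ± 3.23 CPM per kilobase, SD, n = 2) through Suz12 (40.4 ± 1.58), Ezh2 (37.4 ± 0.112) and Eed (36.2 ± 1.10) to Dnmt3a (9.03 ± 0.594), Dnmt3b (4.41 ± 0.0741), Tet3 (3.89 ± 0.0385), Ezh1 (2.13 ± 0.19), Tet2 (1.60 ± 0.157) and Tet1 (0.127 ± 0.0462). The libraries of neighbours in this order did not overlap, although Suz12, Ezh2 and Eed lay close together. In Mek1/2-tKO, Eed came first (40.1 ± 0.331 CPM per kilobase), before Dnmt1 (26.1 ± 2.66), Suz12 (23.3 ± 1.99) and Ezh2 (20.1 ± 0.291), and Ezh1 (3.68 ± 0.18) stood above Dnmt3b (2.72 ± 0.0743) and Tet3 (1.51 ± 0.0105). Dnmt1 and Suz12 overlapped there and the other neighbours did not. The length is that of all annotated exons of a gene, so that a gene expressed mainly from a short transcript is placed too low.

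Exon length moved with the genotype difference over all genes. The median log2 fold change was 0.46 for genes under 2 kb of exon, 0.10 at 2 to 4 kb, -0.21 at 4 to 8 kb, -0.40 at 8 to 12 kb and -0.49 above 12 kb, and the share called lower rose from 5.28% in the first of these bins to 40.4% in the last. Dnmt3a, Tet1, Tet2 and Tet3 have more than 15 kb of exon, and the others 3.83 to 7.44 kb. With the trends of the fold changes on exon length and GC content taken out, an alternative chosen after the data were seen, the log2 fold changes were -0.62 for Ezh2, -0.65 for Suz12, -0.93 for Dnmt1, -0.61 for Tet2, -0.82 for Tet3, -3.49 for Tet1 and 1.11 for Ezh1. Dnmt3a (-0.36) and Dnmt3b (-0.47) then missed the fold threshold, which left 6 genes, Tet1 among them, lower and 1 higher. Nothing was tested again in this alternative. The adjusted p was kept from the fit before this step, and only the fold threshold was applied anew, here and for the lists below. Whether length acts on the measurement or on the cells was not tested.

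**Figure D3:**
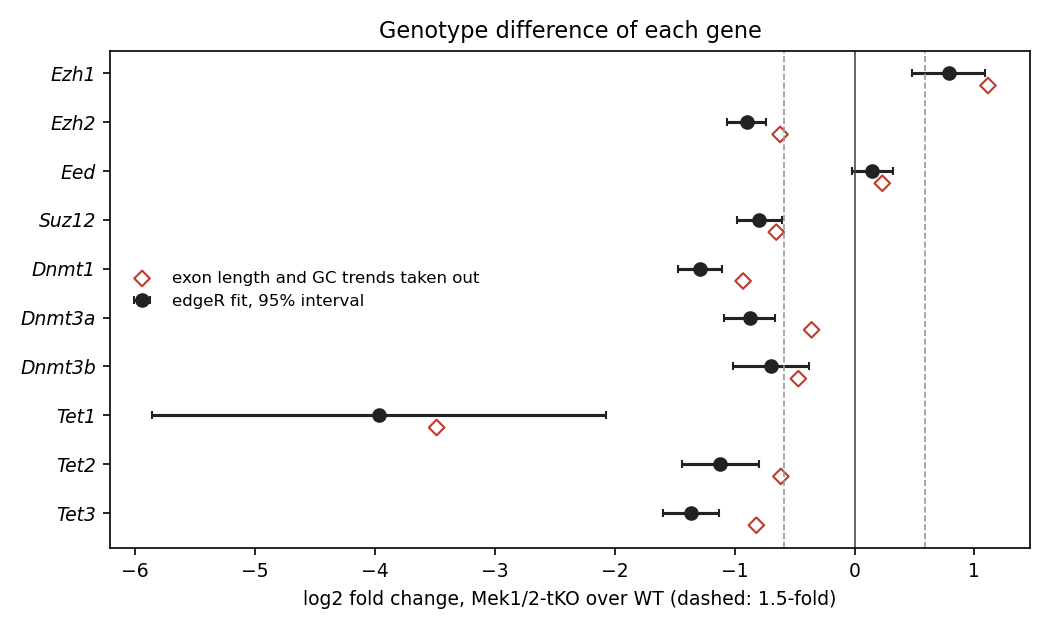
Log2 fold change of each gene, Mek1/2-tKO over WT, with its 95% interval from the edgeR fit (black) and with the exon length and GC trends taken out (red diamonds, no interval). Dashed lines mark 1.5-fold. Every value except those of Ezh1 and Eed lies below 0 in both, and the diamonds of Dnmt3a and Dnmt3b lie inside the dashed lines.

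**Figure D4:**
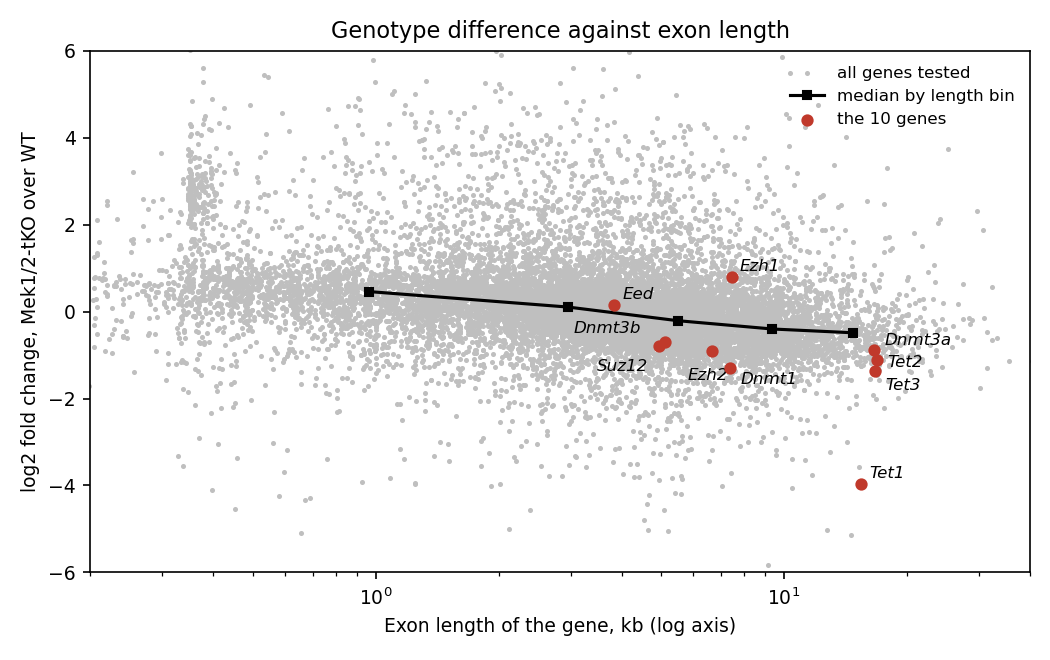
Log2 fold change, Mek1/2-tKO over WT, against exon length (log axis) for the genes tested (grey), with the 10 genes in red and the median of 5 length bins as black squares, drawn at the bin's median length (189 genes lie outside the axes). The medians fall from 0.46 under 2 kb to -0.49 above 12 kb, and Ezh1 and Eed lie above the line while the other 8 lie below it.

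The proliferation genes were read beside these results, since EZH2, DNMT1 and UHRF1 are known to be made most in dividing cells. Of 16 such genes, 6 were lower, none was higher and 10 were not called. Their median log2 fold change was -0.49 and their mean -0.45. Over all genes tested 16.4% were lower and 19.3% higher, and among genes with the exon lengths of the core genes 26.0% and 10.8%. With the length and GC trends taken out, 5 were lower and none was higher. The list was split, since Pcna (0.05), Cdk1 (0.01), Tyms (0.03) and Birc5 (0.24), named to show this, had log2 fold changes above 0. Mki67, the standard proliferation marker, fell from 302 and 315 CPM to 124.5 and 141 CPM (log2 fold change -1.21, SE 0.08, edgeR adjusted p = 4.89e-08). Top2a, the topoisomerase of dividing cells, had a log2 fold change of -1.23 and the replication helicase genes Mcm4, Mcm2, Mcm7 and Mcm3 had -0.76 to -0.64. Against the mean of the proliferation genes, Dnmt1 lay 0.84 lower on the log2 scale, Tet3 0.91 lower, Tet2 0.67 lower, Ezh2 0.45 lower, Dnmt3a 0.43 lower, Suz12 0.34 lower and Dnmt3b 0.25 lower, while Ezh1 lay 1.24 and Eed 0.60 higher. These differences depend on the mean chosen, since Ezh2, Suz12, Dnmt3a, Dnmt3b and Tet2 fell less than Mki67 or Top2a. They also rest on fold changes with the length and GC trends left in. With the trends taken out, the median of the proliferation genes was -0.37. Beside it stood Dnmt3a at -0.36, Dnmt3b at -0.47, Tet2 at -0.61, Ezh2 at -0.62, Suz12 at -0.65, Tet3 at -0.82 and Dnmt1 at -0.93. The part of proliferation in the results was not tested.

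The counts of the lists that follow stand beside 16.4% lower and 19.3% higher over all genes tested, whose median log2 fold change was 0.02, and beside 26.0% lower and 10.8% higher among genes with the exon lengths of the core genes. Of the further PRC2 subunits, most of which steer the complex to its sites, 8 were tested and moved in both directions. They include Rbbp4 and Rbbp7, histone-binding subunits often counted with the PRC2 core. Neither was called, with log2 fold changes of 0.07 for Rbbp4 and 0.003 for Rbbp7. Of these 8, 3 were lower and 1 was higher, with a median log2 fold change of -0.32. Jarid2, which recruits the complex, fell from 48.4 and 50.8 CPM to 17.6 and 22.6 CPM, a log2 fold change of -1.30 (SE 0.13, edgeR adjusted p = 2.63e-06). Aebp2 (-0.61), a partner of JARID2, and Phf19 (-0.68), a reader of H3K36 methylation, were lower too, and both missed the fold threshold with the length and GC trends taken out. Without WT replicate 2 the count of 3 was 1, and without Mek1/2-tKO replicate 1 it was 2. Phf1, which like Phf19 belongs to the Polycomb-like subunits, rose from 8.37 and 9.39 CPM to 44.8 and 47.8 CPM, a log2 fold change of 2.38 (SE 0.14, edgeR adjusted p = 9.42e-09).

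The demethylases that remove the mark were also read. Kdm6b had 27.3 and 24.4 CPM in WT and 10.3 and 16.9 CPM in Mek1/2-tKO, a log2 fold change of -0.92 (SE 0.20, edgeR adjusted p = 0.00128) that was -0.55 with the trends taken out. Kdm6a had a log2 fold change of -0.34 and was not called. Among 21 subunits of Polycomb repressive complex 1, which binds the PRC2 mark and ubiquitinates histone H2A, 7 were lower and 2 higher, with a median log2 fold change of -0.39. These shares are close to those among genes with the exon lengths of the core genes, and with the length and GC trends taken out 3 were lower and 3 higher. The chromobox genes Cbx6 (-1.65), Cbx2 (-1.46) and Cbx8 (-0.86), whose products read the mark, had the largest falls, followed by Phc3 (-0.84) and Bcor (-0.82). Pcgf1 (1.23) and Ring1 (0.61) rose, and the count higher was 1 without WT replicate 1, without Mek1/2-tKO replicate 2 or with library size as the only scaling.

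Of 12 cofactors and readers of DNA methylation, 11 could be tested, with 1 lower (Uhrf1) and 1 higher (Zbtb4, a zinc finger reader of methylated DNA, at 1.57) and a median log2 fold change of -0.24. The lower count was 2 without a filter or with library size as the only scaling, and it also moved when some single libraries were left out. Of 14 partners of demethylation and regulators of TET enzymes, 12 could be tested, with 3 lower and 3 higher and a median of 0.18. The zinc finger gene Cxxc5 rose from 4.62 and 6.02 CPM to 28.6 and 33.5 CPM (log2 fold change 2.55, SE 0.18, edgeR adjusted p = 6.78e-08). The stress-response genes Gadd45g (2.52) and Gadd45b (1.05) rose as well. Idh2, which encodes a mitochondrial isocitrate dehydrogenase that makes the TET cofactor α-ketoglutarate, fell (-0.99), as did Ogt (-0.62), a sugar transferase that binds TET proteins, and Tdg (-0.61), the glycosylase that excises oxidized methylcytosine. Ogt and Tdg missed the fold threshold with the trends taken out.

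The list of 10 genes known as PRC2-controlled in T cells was read in the same fit. Of these 6 were higher and 1 was lower, with a median log2 fold change of 1.52, and the same counts held with the length and GC trends taken out. Cdkn2a, the locus of cell-cycle inhibitors that PRC2 is best known to silence, had 1.75 and 1.40 CPM in WT and 8.53 and 9.69 CPM in Mek1/2-tKO, a log2 fold change of 2.53 (SE 0.29, edgeR adjusted p = 6.23e-06). Its neighbour Cdkn2b had a log2 fold change of 3.10, but passed the filter on low counts only through the Mek1/2-tKO libraries, and without it 5 of 9 genes were higher. Ifng, the Th1 cytokine gene, rose from 127 and 121 CPM to 2054 and 1773 CPM, and Eomes (1.73), Id2 (1.66) and Il10 (1.38) rose too. Ifng, Eomes and Id2 are also genes of NK cells, whose 6 markers were all higher. Gata3, the Th2 regulator, fell from 36.3 and 35.7 CPM to 7.62 and 9.05 CPM, a log2 fold change of -2.10. The count lower was 2 without Mek1/2-tKO replicate 1 or with library size as the only scaling. No H3K27 methylation was measured in these libraries.

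Of 12 germline genes that DNA methylation keeps silent in body cells, none had enough counts to be tested. Summed over the 12, the counts were 14 and 16 in WT and 8 and 4 in Mek1/2-tKO, 8 genes had 0 counts in all libraries, and no gene had more than 12 counts in any. At this depth a rise within a few counts was not detectable.

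**Figure D5:**
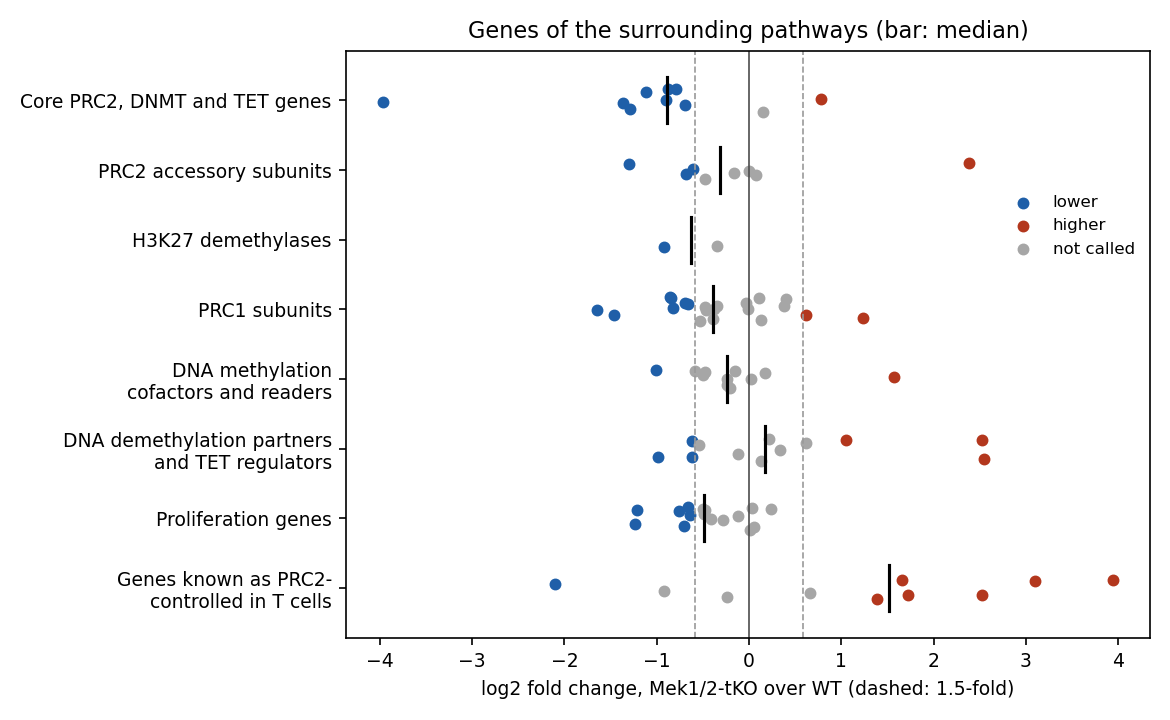
Log2 fold change, Mek1/2-tKO over WT, of each tested gene of the 10 core genes and of the lists around them (points, coloured by call, with the median as a bar and 1.5-fold as dashed lines). The core genes have a median of -0.89 and the genes known as PRC2-controlled one of 1.52, while the medians of the other lists lie between -0.63 and 0.18.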

How the data were processed

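RNA-seq reads of 2 WT and 2 Mek1/2-tKO cultures (stranded mRNA kit, paired reads) were trimmed by the authors with Trimmomatic 0.36 and mapped to GRCm38 with a program that the methods write as STRA, and uniquely mapped reads were assigned to genes with featureCounts (Subread 1.5.1). The authors deposited raw counts per gene with no normalization. The annotation release and the strand setting are not given in the sources used here, but the IDs and spans of 53861 of the 54752 genes, and of all 10 described genes, are those of GENCODE M21. Symbols were matched for 54723 genes. The files also give the exon length of each gene (deposited, in bases).

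Genotypes were compared on the 14330 genes that passed filterByExpr by edgeR's quasi-likelihood test (edgeR 4.0.16, R 4.3.3, TMM scaling, robust option), p values were adjusted by the Benjamini-Hochberg method, and calls needed 1.5-fold and an adjusted p below 0.05. The study's methods name DESeq2 for this step, which was run as an alternative (1.42.0). Levels are CPM on TMM-scaled totals. The biological coefficient of variation was 0.0918. Replicates differed by more than sampling noise (chi-square per gene 4.17 in WT and 10.9 in Mek1/2-tKO). Since permuting 2 against 2 libraries reaches a two-sided p of 0.333 at the lowest, p values rest on the variance model. Trends on exon length and GC content (GC known for 14326 genes) were lowess curves of span 0.3. The steps were also run on simulated counts drawn with the same dispersion for every gene. That setting does not match the unequal noise of the replicates, and no result here rests on it. Promoter sequences are from RefSeq (GRCm38.p6).

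The members and lists were chosen with earlier results of these data known. All 10 genes are given by name. Of the lists, up to 5 called genes per direction with the largest fold change are given, always with Uhrf1, Kdm6a, Kdm6b, Jarid2, Mki67, Cdkn2a, Map2k1 and Map2k2, and of the cell type markers Cd3e, Cd4, Cd79a, Trdc, Ncr1 and Lyz2, of which Trdc had 1.64 and 1.56 CPM in WT and 57.9 and 53.6 CPM in Mek1/2-tKO, Ncr1 0.770 and 0.830 against 11.5 and 9.85 CPM, and Lyz2 0.411 and 0.622 against 10.2 and 6.23 CPM. Alternatives were DESeq2, other scalings, other filters, a replicate block, other fold thresholds and leaving out each library. Other experiments of the study were not analysed here.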

Additional observations from a re-analysis of the deposited data

How the results depend on the processing

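The calls of the 10 genes (8 lower, 1 higher) were the same under DESeq2, with its size factors in edgeR, with no scaling beyond library size, without a filter and with each library left out (8 lower, 1 higher in every case), except that Tet1 has no value with at least 10 counts in every library. Replicate numbers are shared by the genotypes only as numbers (correlation of deviations -0.03 over 2 pairs). The replicate block gave 2652 genes higher and 2300 lower and the same calls of the 10 genes. Pathway genes are here those of all lists except the cell type markers. Tested were 8 further PRC2 subunits, 2 demethylases, 21 PRC1 subunits and 11 cofactors and readers of DNA methylation. With them were tested 12 demethylation partners, 16 proliferation genes and 10 PRC2-controlled genes. In the main fit 22 of these were lower and 13 higher. Over all genes tested 16.4% were lower and 19.3% higher, and among genes with the exon lengths of the core genes 26.0% and 10.8%. Leaving out a library gave 2338 to 2791 genes higher, 2119 to 2627 lower, and 20 to 24 lower and 12 to 14 higher among the pathway genes. At a fold change of at least 2, 1725 genes were higher and 1040 lower, 0 of the 10 genes were higher and 4 lower, and 7 pathway genes were lower in place of 22. That threshold left 12 pathway genes higher in place of 13. With no fold threshold, 3903 genes and 38 pathway genes were lower, against 3983 and 16 higher. Taking out the exon length and GC trends left 1531 genes lower and 2444 higher. Among the pathway genes, 13 fell and 14 rose in that setting, against 22 and 13 in the main fit. Dnmt3a (-0.36) and Dnmt3b (-0.47) then missed the fold threshold. Values less the mean of the proliferation genes were taken with the trends left in. On the log2 scale they were 1.24 for Ezh1, -0.45 for Ezh2, 0.60 for Eed, -0.34 for Suz12 and -0.84 for Dnmt1. Dnmt3a had -0.43, Dnmt3b -0.25, Tet2 -0.67 and Tet3 -0.91. The cause was not tested. No direction of the 10 genes changed under any alternative. Of the lists, the median of the cofactors and readers of DNA methylation went from -0.24 to 0.04 with the length and GC trends taken out. Depth limits Tet1, the germline genes and the list genes that could not be tested.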
